A study of Mus musculus with 8 samples.

Results

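The genes described here are 10 smooth muscle contractile genes, Myh11, Actg2, Des, Acta2, Tagln, Cnn1, Myl9, Tpm2, Synm and Pcp4. They were picked by symbol and not by a cut on a measured value, but with earlier results of these data known. All 10 were found among the 32285 genes of the deposited tables. The study concerned lymphatic vessels and intestinal stem cells of the mouse and held 8 libraries, of which 6 were used. Visium, which captures RNA from a tissue section on a slide of barcoded spots, was run on 2 small intestinal and 2 large intestinal sections, from wild-type C57BL/6 mice according to the sample titles and the strain label. The sections were 10 µm thick, were cut frozen from tubes of intestine for the immunofluorescence form of the protocol, and are described by the submitters as technical duplicates within each tissue. Droplet single-cell sequencing gave 1 library of small and 1 of large intestine. The cells for these were sorted as live cells from digested tissue, with added Lgr5+ stem cells and CD31+ PDPN+ LYVE1+ lymphatic endothelial cells, and the mice were C57BL/6 or carried Lgr5-eGFP-ires-CreERT2, a reporter of the stem cell gene Lgr5, on that background. Which mice gave which cell library, and whether the sections of a tissue came from 1 animal, are not given in the sources used here, so strain and tissue cannot be told apart in the cell libraries. The age of the mice is not given in the sources used here, and no treatment separated the groups. The 2 organoid libraries were not analysed here.

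Smooth muscle contracts when myosin heads on thick filaments pull on actin in thin filaments, and the switch is phosphorylation of the myosin light chain by a kinase that calcium and calmodulin turn on. Intermediate filaments of desmin and synemin tie the contractile units to each other and to the cell surface. In the gut wall this machinery is found in the circular and longitudinal layers of the muscularis, in the thin muscularis mucosae, in strands of muscle in the core of villi, and in the muscle and pericytes around vessels. Visceral muscle is known for the gamma enteric actin encoded by Actg2, and vascular muscle for the alpha actin encoded by Acta2, although gut muscle makes both.

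Many smooth muscle genes are known to carry CArG boxes, the site bound by serum response factor with its partner myocardin. RefSeq promoter windows (build GRCm38.p6, 250 bases before to 50 bases after a gene's start) were found for 7 of the 10 genes. No window was used for Myh11, Actg2 or Tagln. The box was searched as CC, a core of 6 bases of A or T, then GG, which reads the same way on both strands. With no G or C in the core it was present in 1 of the 7 windows, that of Myl9, and in 1.63% of all 32851 windows. With at most 1 G or C in the core it was present in 4 of the 7, those of Acta2, Myl9, Synm and Pcp4, and in 9.98% of all windows. The bases before the annotated gene are printed for Myl9, the gene with the box that has no G or C in its core, and for Pcp4, the gene with the largest difference between the tissues. Each is read 5′ to 3′ on the strand of the gene, with the boxes in capitals. The Myl9 stretch is chr2:156775214-156775407 on the plus strand, and the Pcp4 stretch is chr16:96467356-96467605 on the plus strand.
Myl9: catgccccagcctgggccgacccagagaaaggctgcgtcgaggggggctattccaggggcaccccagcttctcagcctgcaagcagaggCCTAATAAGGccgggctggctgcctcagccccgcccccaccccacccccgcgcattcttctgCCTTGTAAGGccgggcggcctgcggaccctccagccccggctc
Pcp4: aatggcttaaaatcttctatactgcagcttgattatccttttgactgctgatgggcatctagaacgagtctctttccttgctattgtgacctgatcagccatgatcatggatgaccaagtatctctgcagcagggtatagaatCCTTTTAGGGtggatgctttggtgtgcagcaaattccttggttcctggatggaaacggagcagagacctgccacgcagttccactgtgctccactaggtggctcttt
The Myl9 boxes began 161 and 99 bases before the start that the RefSeq window uses, and the Pcp4 box began 107 bases before it. In the Acta2 window the boxes were CCCTATATGG, 84 bases before the start, and CCTTGTTTGG, 34 bases before it, and in the Synm window the box was CCTCATAAGG, 239 bases before the start. Of the 250 bases before the start of the Acta2 window, 212 lie inside the gene as annotated, and so do both Acta2 boxes. A match is a description of letters in a window and shows no binding.

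Levels are given in CPM, the unique molecular identifiers (UMIs) of a gene in 1000000 UMIs of the section or group of cells. UMIs count RNA molecules after removal of copies made by PCR. They are taken near one end of a transcript and not per length, so levels are compared for 1 gene between samples and not between genes. With a minimum of 500 UMIs, 2094 and 2571 spots were kept in the sections of small and 2094 and 2179 in those of large intestine. The sections held 24355871 to 43832840 UMIs, with a median of 10208.5 and 9039 UMIs per spot in small and of 19329 and 19822 in large intestine. The labels fitted the epithelium: Olfm4, a small intestinal crypt gene, was at 299 and 186 CPM in small intestine and at 0 and 0.0913 CPM in large intestine, and Car1, a gene of large intestinal surface cells, was at 0.287 and 0.432 against 279 and 282 CPM. Because the duplicates within a tissue are technical and each tissue gave 1 cell library, no test between tissues was possible, and no p-value is given. A gene was called higher in a tissue where its lower section there was at least 2-fold above the higher section of the other tissue.

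The contractile genes made up more of the RNA in the small intestine sections. Together they were 1.29% and 1.72% of all UMIs in small and 0.338% and 0.331% in large intestine sections 1 and 2. All 10 were called higher in small intestine and 0 in large intestine. Among 14253 genes with at least 100 UMIs over the 4 sections, 10.4% were called higher in small and 9.93% in large intestine. The median log2 ratio of small over large was 2.16 over the 10 genes and -0.02 over all genes tested, whose 5th to 95th percentiles ran from -1.71 to 1.97. Of all genes tested, 974 or 6.83% had a ratio at least as high as Tagln, the lowest of the 10. In spots of mixed tissue, fewer muscle cells and less RNA per muscle cell cannot be told apart.

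**Figure D1:**
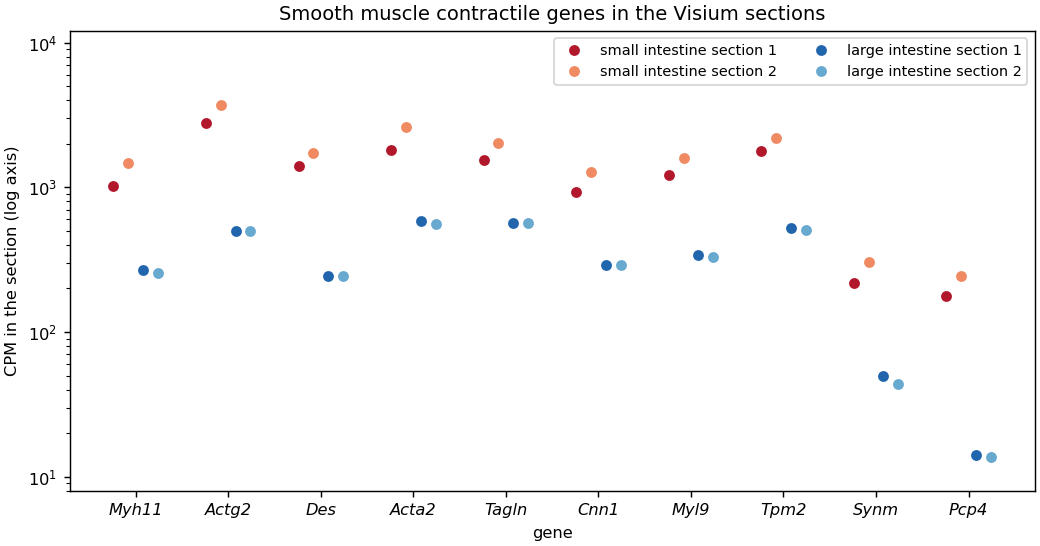
Level of each contractile gene (CPM, log axis) in the 4 Visium sections, red for small and blue for large intestine. Bars are exact 95% Poisson intervals and are mostly smaller than the points. For each gene both small intestine points lie above both large intestine points, with the widest gap at Pcp4.

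Of the thick filament genes, Myh11 encodes the smooth muscle myosin heavy chain and lies at chr16:14194527-14292188 (GRCm38.p6, as all gene positions here). It had 1019 and 1477 CPM in small and 268 and 256 CPM in large intestine sections 1 and 2, a fold difference of 4.77 between the means. Myl9 (chr2:156775408-156781657) encodes the regulatory light chain whose phosphorylation sets off contraction. It had 1212 and 1604 CPM in small and 342 and 330 CPM in large intestine, 4.19-fold. For both genes the sections of the tissues did not overlap, which is common in these data. Over all genes tested, 41.8% did not overlap with small intestine higher and 44.4% with large intestine higher. The lower small intestine section was 3.81-fold (Myh11) and 3.55-fold (Myl9) above the higher large intestine section.

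Both actin genes were higher in small intestine, and Actg2 was so by the larger factor. Actg2 (chr6:83512909-83536251), the gamma actin of visceral muscle, had 2779 and 3702 CPM in small and 498 CPM in each large intestine section, 6.51-fold. Acta2 (chr19:34240336-34255585), the alpha smooth muscle actin, had 1815 and 2597 CPM in small and 582 and 559 CPM in large intestine, 3.87-fold. The coding sequences of the actins are nearly identical, so some reads could have been assigned to the wrong actin gene or dropped as ambiguous, and the size of this was not tested.

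Genes for the proteins that bind the actin filament, Tagln, Cnn1 and Tpm2, had the smallest fold differences between the means of the 10 genes. Tagln (chr9:45929628-45936058), which encodes the actin-bundling protein transgelin or SM22, had 1556 and 2024 CPM in small and 571 and 568 CPM in large intestine, 3.14-fold. Cnn1 (chr9:22099221-22109221), which encodes the actin-binding protein calponin, had 926 and 1283 against 291 and 291 CPM, 3.80-fold. Tpm2 (chr4:43513726-43523583), the beta tropomyosin that runs along the actin filament, had 1778 and 2204 against 522 and 510 CPM, 3.86-fold. For the 3 genes, the lower small intestine section was 2.73-fold to 3.41-fold above the higher large intestine section. By that gap Acta2, at 3.12-fold, lay below Cnn1 and Tpm2.

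The intermediate filament genes differed more. Des (chr1:75360292-75368579), which encodes desmin, had 1409 and 1734 CPM in small and 244 CPM in each large intestine section, 6.44-fold. Synm (chr7:67730161-67759742), which encodes synemin, a large partner of desmin, had 219 and 305 against 49.7 and 43.8 CPM, 5.61-fold. Both genes were well separated, with the lower small intestine section 5.77-fold (Des) and 4.41-fold (Synm) above the higher large intestine section.

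Pcp4 (chr16:96467606-96525793) encodes a small protein that binds calmodulin and speeds its exchange of calcium, and it is also expressed by neurons. It had 177 and 243 CPM in small and 14.1 and 13.6 CPM in large intestine sections, from 4319, 7318, 583 and 597 UMIs. The means differed 15.2-fold, the largest ratio of the 10, and the lower small intestine section was 12.5-fold above the higher large intestine section. Its counting interval in large intestine section 1, 8.21% to each side, was the widest of the 40 values, so counting error was small beside these differences.

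The sections of 1 tissue did not lie equally close. All 10 genes were higher in small intestine section 2 than in section 1, by 0.30 (Des) to 0.54 (Myh11) on the log2 scale, where the median size of that difference over all genes tested was 0.19. Between the large intestine sections the differences ran from -0.18 (Synm) to 0.005 (Des), and the median size over all genes was 0.07. Each small over large ratio exceeded these differences between duplicates. The ratio depended on how spots were weighted: with every spot counted equally, as the mean of each spot's CPM, the median log2 ratio over the 10 genes was 1.5. Under that weighting 7 of the 10 genes were called, against 8.43% of all genes, and Acta2, Tagln and Cnn1 missed the call, with Tagln at 1.70-fold, Cnn1 at 1.87-fold and Acta2 just under 2-fold.

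The UMIs of the 10 genes sat in a minority of spots, and more spots of small intestine were rich in them. Spots in which the 10 genes were at least 3% of all UMIs, called muscle-rich here, numbered 383 (18.3% of spots) and 519 (20.2%) in small and 132 (6.30%) and 112 (5.14%) in large intestine sections 1 and 2. They held 79.8% and 83.0% of the UMIs of the 10 genes in small but 32.5% and 26.6% in large intestine, where 39.8% and 43.8% lay in spots of 1% to 3%. At the other end, spots under 0.1%, called muscle-poor, were 10.8% and 4.78% of small and 57.2% and 59.3% of large intestine spots. The median spot had 0.299% and 0.577% in small and 0.0781% and 0.0716% in large intestine, and the highest spot reached 10.4%, 11.1%, 7.64% and 6.47% in the 4 sections.

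Depth moved with this measure. Across the spots of a section, the percent of UMIs from the 10 genes had a Spearman correlation with the UMIs of the spot of -0.39 and -0.41 in small and of -0.65 and -0.56 in large intestine, over 2094 to 2571 spots that share a library. Muscle-rich spots had a median of 10010 and 11042 UMIs in small and 8649 and 8742.5 in large intestine. Muscle-poor spots had 18858, 27642, 24089.5 and 23990. The 8 epithelial markers summed to 3397 and 2619 CPM in the muscle-rich and 17163 and 17121 CPM in the muscle-poor spots of small intestine, and to 8464 and 9181 against 15759 and 16522 CPM in large intestine. So muscle-rich spots of large intestine carried more epithelial RNA than those of small intestine. The part of epithelial RNA in the difference between the tissues was not tested.

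**Figure D2:**
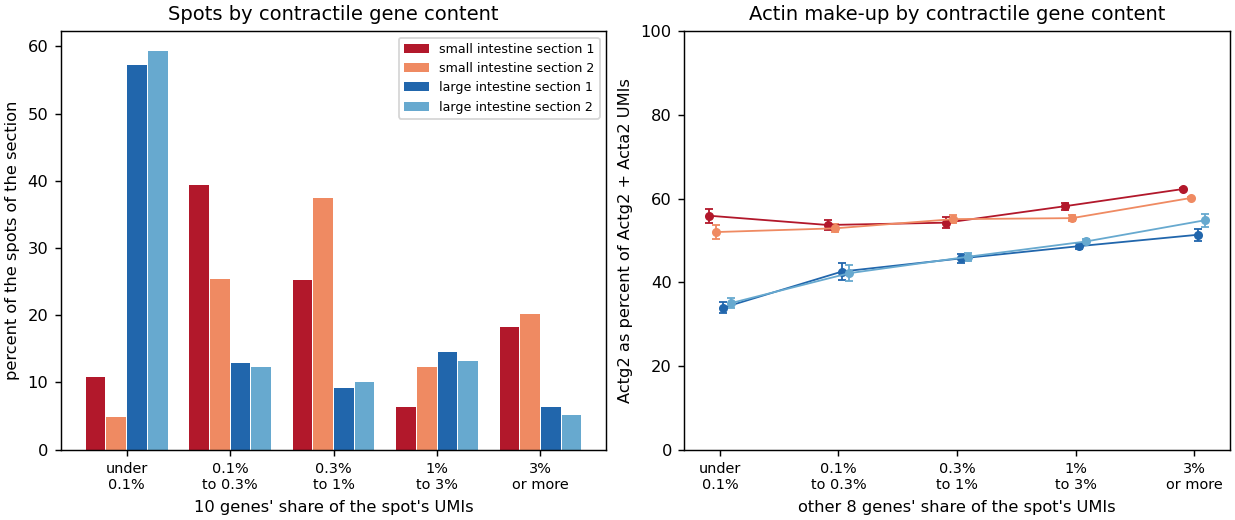
Left: percent of the spots of each section (bars, from 0) by the share of a spot's UMIs that came from the 10 genes. Right: Actg2 as a percent of the Actg2 and Acta2 UMIs, with exact 95% binomial intervals, by the share of the other 8 genes in the spot. Muscle-rich spots were 18.3% and 20.2% of small against 6.30% and 5.14% of large intestine spots, and the Actg2 percent was highest in the spots richest in the other genes.

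To compare the share of spots with a UMI at equal depth, every spot was thinned at random to 2000 UMIs. This left out 31 and 147 spots of small and 10 and 13 of large intestine that were shallower. At least 1 of the 10 genes was then seen in 96.8% and 98.6% of small and 77.3% and 75.8% of large intestine spots. Without thinning these shares were 99.95%, 100%, 99.9% and 99.8%.

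Each single gene was seen in a lower share of spots in both large intestine sections. Actg2 was seen in 69.5% and 78.9% of thinned spots in small and 36.9% and 35.2% in large intestine, where 96.7%, 99.1%, 81.3% and 80.8% held it before thinning. For Acta2 the shares were 64.9% and 75.3% against 44.1% and 42.5% (unthinned 94.8%, 97.7%, 92.1% and 92.9%). Myh11 was in 48.9% and 60.4% against 32.5% and 30.4% (unthinned 83.5%, 92.7%, 75.3% and 71.4%). As a ratio the gap was widest for Pcp4, with 21.1% and 27.4% against 5.04% and 3.74% (unthinned 40.02%, 49.1%, 16.1% and 15.4%). Free RNA that spreads over the slide also gives UMIs in spots without muscle, so these shares are not shares of spots that hold muscle.

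All 45 pairs of the 10 genes were seen together in more thinned spots than the product of their shares. The median log2 of that ratio over pairs was 0.41 and 0.28 in small and 1.02 and 1.05 in large intestine. A gene seen in most spots cannot reach a high ratio: the largest value that the shares of a pair allow had a median of 0.77 and 0.52 in small and 1.34 and 1.41 in large intestine. The part of this limit in the difference between the tissues was not tested. Synm and Pcp4 had the highest ratio of the 45 pairs in every section, 1.49 and 1.07 in small and 2.17 and 1.93 in large intestine, where both were in 3.07% and 1.62% of spots. The value their shares allow was also the highest of the 45, at 2.04 and 1.68 in small and 2.88 and 3.14 in large intestine. Across all spots of a section the median Spearman correlation over the pairs (log of CPM plus 1) was 0.722 and 0.755 in small and 0.728 and 0.719 in large intestine. For Synm with Pcp4 it was below these medians, at 0.603 and 0.560 in small and 0.427 and 0.429 in large intestine. The spots share a library and differ in depth, so these are descriptions. The highest pair was Acta2 with Tagln in small intestine section 1 (0.788) and in both large intestine sections (0.771 and 0.769), and Actg2 with Acta2 in small intestine section 2 (0.849). Pcp4 had the lowest median correlation with the other 9 genes, 0.603 and 0.586 in small and 0.407 and 0.424 in large intestine.

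Beyond the amount of muscle RNA, its make-up differed between the tissues. This was measured as the percent of each gene among the summed UMIs of the 10, which takes out the total. Actg2 was 21.6% in both small and 14.7% and 15.02% in the large intestine sections. Des was 10.9% and 10.1% against 7.20% and 7.38%, and Pcp4 was 1.38% and 1.42% against 0.418% and 0.411%, a ratio of 3.37. With Synm, at 1.70% and 1.78% against 1.47% and 1.32%, these 4 genes had larger shares in both small intestine sections.

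Larger shares in both large intestine sections were found for 5 genes. Tagln was 12.1% and 11.8% in small and 16.9% and 17.1% in large intestine, the widest of the 5, and Acta2 was 14.1% and 15.1% against 17.2% and 16.9%. Tpm2 was 13.8% and 12.8% against 15.4% in each, Cnn1 7.18% and 7.47% against 8.60% and 8.79%, and Myl9 9.40% and 9.34% against 10.1% and 9.97%. Myh11 overlapped between the tissues, at 7.91% and 8.60% against 7.92% and 7.72%. Because shares sum to a whole, a larger share of some genes lowers that of others.

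Within muscle-rich spots alone, a choice made after the data were seen, 6 genes had larger shares in both small and 4 in both large intestine sections. Actg2 was 22.1% and 21.9% against 16.3% and 16.8%, Pcp4 1.44% and 1.44% against 0.538% and 0.577%, and Tagln 11.9% and 11.7% against 16.8% and 16.9%. The order of Myl9 turned, with 9.29% and 9.34% in small and 8.93% and 8.76% in large intestine. Myh11 no longer overlapped, with 7.91% and 8.58% against 7.75% and 7.49%. With each spot counted equally, Cnn1 overlapped between the tissues, at 7.65% and 7.78% against 7.68% and 8.30%.

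**Figure D3:**
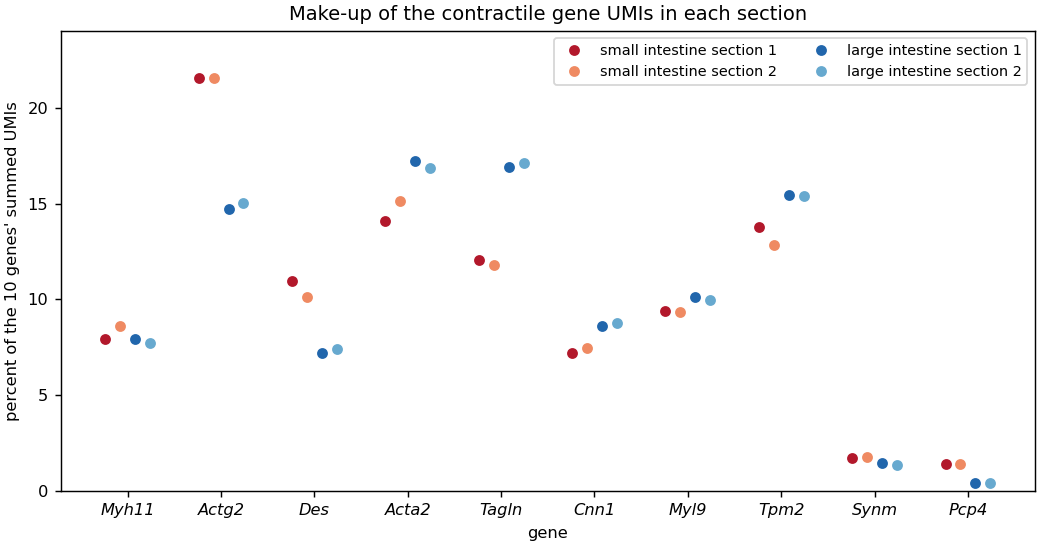
Percent of each gene among the summed UMIs of the 10 contractile genes, by section, red for small and blue for large intestine. Actg2, Des, Synm and Pcp4 have larger shares in both small intestine sections, Acta2, Tagln, Cnn1, Myl9 and Tpm2 in both large intestine sections, and Myh11 overlaps.

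Neuron markers were measured beside Pcp4, since enteric neurons lie between the muscle layers. The 12 neuron markers summed to 1268 and 1313 CPM in muscle-rich and 21.1 and 27.8 CPM in muscle-poor spots of small intestine, and to 638 and 599 against 16.5 and 17.0 CPM in large intestine. In spots where the other 9 genes were at least 3% of all UMIs and with at least 1 neuron UMI, Pcp4 had 1.5 and 1.46 UMIs per 100 UMIs of the other 9 genes in small and 0.542 and 0.614 in large intestine. In such spots with no neuron UMI it had 1.27 and 1.38 in small (73 and 71 spots) and 0.490 and 0.479 in large intestine (29 and 36 spots). In spots with no neuron UMI the exact Poisson intervals were 1.16 to 1.38 and 1.27 to 1.5 in small and 0.355 to 0.660 and 0.349 to 0.641 in large intestine. These spots were shallower, with a median of 7659, 7753, 7783 and 6289 UMIs in the 4 sections against 10331, 11544.5, 8797.5 and 9649.5 in those with a neuron UMI. A spot with no neuron UMI can still hold neuron RNA, and the part of neurons in the difference between the tissues was not tested.

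The balance of the actins was taken as the percent of Actg2 in the summed UMIs of Actg2 and Acta2. It was 60.5% and 58.8% in small and 46.1% and 47.1% in large intestine sections. Spots were then sorted by the share of the other 8 genes. From spots under 0.1% to spots of 3% or more, the Actg2 percent went from 55.9% to 62.3% and from 52.0% to 60.1% in small intestine sections 1 and 2, where section 1 was lowest, at 53.7%, in spots of 0.1% to 0.3%. In large intestine it went from 33.9% to 51.3% and from 35.0% to 54.8%, with 36 and 28 spots in the richest class. In every class both small intestine sections had a higher Actg2 percent than both large intestine sections. The limit on read assignment between the actins applies to these percents too.

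A wider list of 59 other genes of the contractile apparatus and its control was mostly higher in small intestine as well. Of these, 37 were called higher in small, 0 in large and 22 in neither tissue, against 10.4% and 9.93% of all genes, and their median log2 ratio was 1.70. The largest gap was that of Actc1, the cardiac actin gene, with 5.46 and 5.05 CPM in small and 0.582 and 0.570 CPM in large intestine. It was followed by Hspb6, a small heat shock protein of muscle, with 76.7 and 125 against 9.19 and 8.65 CPM. Mylk, the myosin light chain kinase that turns on contraction, had 1086 and 1502 against 175 and 162 CPM. Ldb3, a Z-disc protein in striated muscle, had 80.6 and 90.5 against 14.96 and 15.1 CPM, and Synpo2, which binds actin, had 172 and 243 against 35.3 and 34.7 CPM. The lower small intestine section of these 5 was 4.88-fold (Synpo2) to 8.68-fold (Actc1) above the higher large intestine section. The cytoplasmic actins Actb and Actg1, the non-muscle myosin Myh9 and the transgelin relative Tagln2 were among the 22 called in neither tissue. Actb had 8428 and 10336 CPM in small and 4329 and 4400 CPM in large intestine, and its lower small intestine section was 1.92-fold above the higher large intestine section, which missed the call. Actg1 had 2689 and 2618 CPM in small and 3016 and 3181 CPM in large intestine.

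Genes outside the 10 were ranked by how closely their level followed the summed 10 genes across spots, by the Spearman correlation in the section where it was lowest, over 10427 genes with at least 100 UMIs in every section. The 10 highest were Flna (0.724), Mylk (0.684), Tpm1 (0.678), Csrp1 (0.677), Ckb (0.650), Sparcl1 (0.620), Cald1 (0.614), Cavin1 (0.593), Synpo2 (0.582) and Mgp (0.579). The wider contractile list holds 6 of them. All but Mgp were called higher in small intestine, beside 8.31% of the 10427 genes ranked, but the 10 were picked for following genes that were all called. Csrp1, with 433 and 654 CPM in small and 128 and 169 CPM in large intestine, had its lower small intestine section 2.56-fold above the higher large intestine section.

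Muscle also surrounds vessels, so 14 markers of vascular muscle and pericytes were measured beside markers of the gut's own muscle. Of 13 with enough UMIs, 6 were called higher in small intestine (Rgs5, Kcnj8, Abcc9, Rgs4, Cspg4 and Mcam) and 0 in large intestine, beside 10.4% and 9.93% of all genes, with a median log2 ratio of 0.83. Rgs5, an inhibitor of G protein signalling known from pericytes, had 374 and 498 CPM in small and 40.02 and 35.5 CPM in large intestine. Notch3, the Notch receptor of arterial muscle, had 4.27 and 4.42 against 4.58 and 4.86 CPM. So the vascular markers did not move as one list: Notch3, Ndufa4l2, Higd1b, Cox4i2, Gja4, Olfr558 and Heyl were called in neither tissue.

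Within sections Rgs5 lay in the muscle-rich spots, at 1723 and 1961 CPM in small and 231 and 225 CPM in large intestine, against 33.7 and 44.9, and 19.6 and 17.3 CPM in muscle-poor spots. Chrm2, the muscarinic receptor of gut muscle, had 88.0 and 107 CPM in muscle-rich spots of small and 87.8 and 74.2 CPM in those of large intestine, so the lower small and the higher large intestine section were nearly equal. Over whole sections it had 17.5 and 25.5 against 6.64 and 6.62 CPM. Hhip, a hedgehog-binding protein, had another distribution: 3.32 and 2.29 CPM in muscle-rich and 2.47 and 3.93 CPM in muscle-poor spots of small intestine, and 6.33 and 2.03 against 13.2 and 10.6 CPM in large intestine. Of the 12 markers in the plot of marker levels by spot kind, it was the only one with a lower level in muscle-rich than in muscle-poor spots of both large intestine sections.

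Fibroblast markers also accompanied the muscle. The 10 fibroblast markers summed to 4025 and 4355 CPM in muscle-rich and 367 and 370 CPM in muscle-poor spots of small intestine, and to 4564 and 3845 against 996 and 956 CPM in large intestine. Over whole sections 1 of these 10 genes was called higher in small and 0 in large intestine, near the 10.4% of all genes called in small intestine. Among 8 blood endothelial markers 0 were called in either tissue. Of 6 skeletal muscle markers tested, 2 were called in small and 1 in large intestine, beside 10.4% and 9.93% of all genes. Of 4 mesothelium, 11 enteric neuron and 6 enteric glia markers tested, 3, 3 and 1 were called in small and 0 in large intestine. Of 4 markers of interstitial cells of Cajal, 0 were called in small and 1 in large intestine, beside the same shares of all genes. The part of these other cells in the results was not tested.

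**Figure D4:**
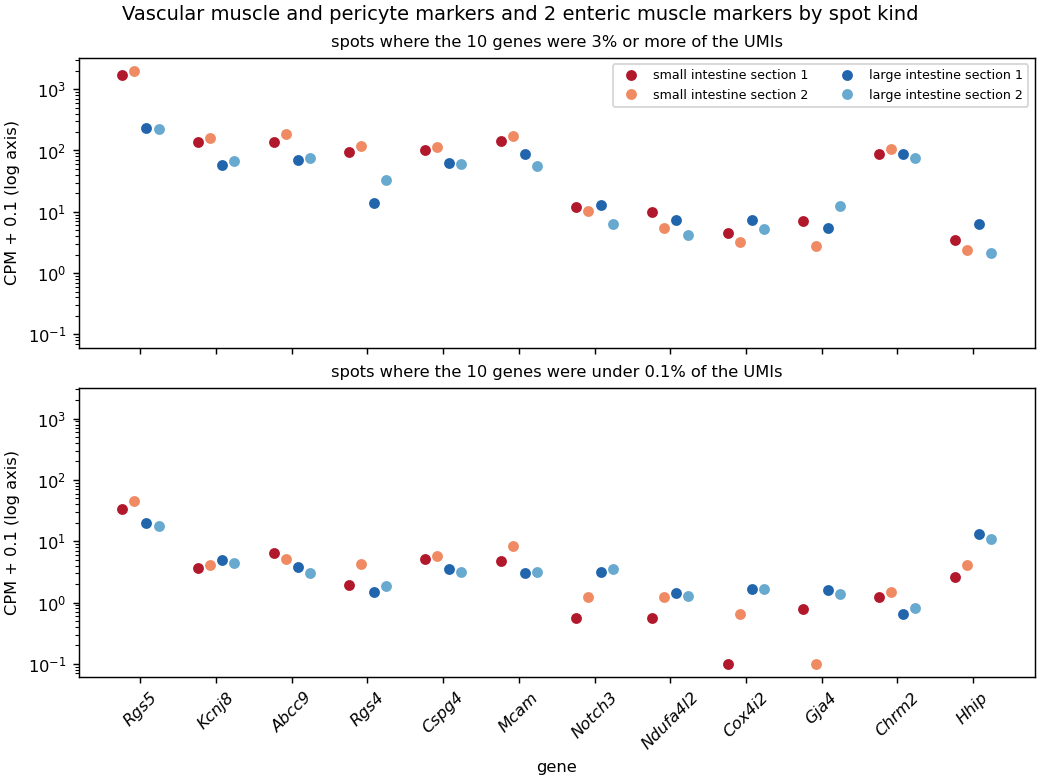
Levels (CPM plus 0.1, log axis) of 10 vascular muscle and pericyte markers and of Chrm2 and Hhip in spots where the 10 contractile genes were at least 3% (top) or under 0.1% (bottom) of the UMIs. Rgs5 in muscle-rich spots was 1723 and 1961 CPM in small against 231 and 225 CPM in large intestine, whereas Chrm2 was 88.0 and 107 against 87.8 and 74.2 CPM.

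In the cell libraries the contractile genes were concentrated in few cells. After removal of cells with fewer than 500 genes or more than 20% mitochondrial UMIs, and of the cells with the highest doublet scores, 2695 cells of small and 5882 of large intestine remained, of 8842 and 8646. The libraries share 25 barcodes. The median cell had 11810 and 21761 UMIs. A cell with a UMI of at least 5 of the 10 genes is called contractile here. There were 24 such cells (0.891%, exact binomial interval 0.571% to 1.32%) in small and 121 (2.06%, 1.71% to 2.45%) in large intestine, and they held 93.1% and 91.1% of all UMIs of the 10 genes. These shares describe the sorted libraries and not the tissue, and all intervals given here cover counting error only. Clustering without the 10 genes put 21 and 115 of the contractile cells in clusters that carried markers of smooth muscle or pericytes.

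In large intestine these clusters were a pair with different contractile genes. Cluster 26 (94 cells, median 6086.5 UMIs) was led, apart from the 10 genes, by Actc1, Mansc4, Chrdl2 and Trpc6, and had Actg2 at 2749, Acta2 at 13132, Des at 288, Cnn1 at 1141 and Hhip at 2886 CPM. Cluster 22 (89 cells, median 6221 UMIs) was led by Trpa1, Pln, Cox4i2, the myeloid gene Cd300e and Rgs5. It had Actg2 at 13.8 CPM, from 8 UMIs, Acta2 at 2023, Des at 181, Cnn1 at 10.3 and Hhip at 12.1 CPM. Of its 89 cells 23 were contractile, against 92 of the 94 in cluster 26, and these cluster levels rested on few cells: 16 contractile cells with at least 1 of 8 vascular genes, a list described with the next result, held 846 of its 1173 Acta2 UMIs and 99 of its 105 Des UMIs. Rgs5 was at 51.5 CPM in cluster 26 and 940 CPM in cluster 22. Cluster 22 also had Pdgfra, a fibroblast gene, at 755 CPM, and its 10 fibroblast markers summed to 18145 CPM against 8013 in cluster 26, so its name as muscle or pericyte rests on part of its genes. Pcp4 had 0 UMIs in both clusters. In small intestine there was 1 such cluster, of 56 cells, led apart from the 10 genes by Hpse2, Pln and Rgs5, in which the fibroblast markers summed to 23834 CPM. Since the clusters were made from these cells, their differences are descriptions.

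The contractile cells were then sorted by vascular markers and by Hhip. In small intestine 19 of 24 (79.2%) and in large intestine 41 of 121 (33.9%) held at least 2 of the 14 vascular genes. With cells thinned to 2000 UMIs these were 11 of 15 (73.3%) and 17 of 107 (15.9%). Because Rgs5 and some others of that list were abundant in muscle-rich spots, a narrower list of 8 genes (Notch3, Ndufa4l2, Higd1b, Cox4i2, Gja4, Olfr558, Map3k7cl and Heyl) was added after the section values were seen. The 6 genes left out were the 6 called higher in small intestine sections. The narrower list thus coincides with a tissue difference in these data. At least 1 of its 8 genes was found in 10 cells (41.7%) of small and 19 cells (15.7%) of large intestine. Hhip was found in 5 of 24 and 92 of 121 contractile cells, and together with a narrower vascular gene in 1 and 2 cells. Rgs5 was found in 5 of the 5 contractile cells with Hhip in small and in 11 of the 92 in large intestine. Of all Hhip UMIs of the large intestine library, 1802 of 2064 (87.3%) lay in its contractile cells.

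Actg2 and Des were counted in the same cells. In large intestine Actg2 was found in 3 of 19 contractile cells with a narrower vascular gene and in 91 of the 102 others, whereas Des was found in 16 of 19 and in 36 of 102. In small intestine Des was found in 10 of 10 cells with a narrower vascular gene and in 7 of the 14 others, and Actg2 in 6 of 10 and 6 of 14. So Des was found in cells with and without these vascular genes. Of the 3 cells of large intestine with both Actg2 and a narrower vascular gene, 2 also held Hhip, and Actg2 was in 1 of the 17 without Hhip. These counts rest on few cells, and the number of UMIs per cell was not held equal in them.

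The actin balance of cells was lower than that of sections. Actg2 was 26.8% of the actin UMIs of contractile cells in small (25.1% to 28.5%) and 15.8% in large intestine (15.1% to 16.5%), against 46.1% to 60.5% in the sections. In cells with a narrower vascular gene it was 4.24% (2.84% to 6.07%) in small and 4.16% (3.03% to 5.56%) in large intestine. The large intestine value depended on 2 cells that also held Hhip. Without the cells with Hhip, a choice made after the data were seen, it was 5.11% (3.42% to 7.30%) in 9 cells of small and 0.702% (0.258% to 1.52%) in 17 cells of large intestine, from 28 and 6 Actg2 UMIs, and the 6 lay in 1 cell. In contractile cells with a Hhip UMI it was 8.52% (5.82% to 11.9%) in 5 cells of small and 17.2% (16.5% to 18.0%) in 92 cells of large intestine. The value over all contractile cells of small intestine rested on 3 cells, without which it was 6.17%, and as a mean over cells it was 8.85% in small and 13.4% in large intestine.

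Those 3 cells of small intestine were the only ones in either library with all 10 genes. They had 21792, 17111 and 23043 UMIs, none of the narrower vascular genes and no Hhip UMI. Of the wider list of 14 vascular genes they held 3, 3 and 5, with 67, 61 and 29 Rgs5 UMIs, which were 157 of the 289 Rgs5 UMIs of contractile cells. They held 642 of the 701 Actg2 UMIs of contractile cells, 505 of 593 Des UMIs, 104 of 134 Synm UMIs and all 92 Pcp4 UMIs, and 1019 of 1917 Acta2 UMIs. All 29 Chrm2 UMIs of the contractile cells were also theirs. Actg2 was 38.7% of their actin UMIs, and 51.8%, 36.1% and 18.8% in the single cells. Contractile cells of large intestine had 0 Pcp4 UMIs, so none of them could hold all 10 genes. Some held the other 9, such as 1 cell of 11297 UMIs with 67 Actg2, 19 Des, 45 Cnn1 and 4 Synm UMIs. The 3 cells were also deep, where the median of their cluster was 6704 UMIs. Why so few cells with all 10 genes were captured was not tested.

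**Figure D5:**
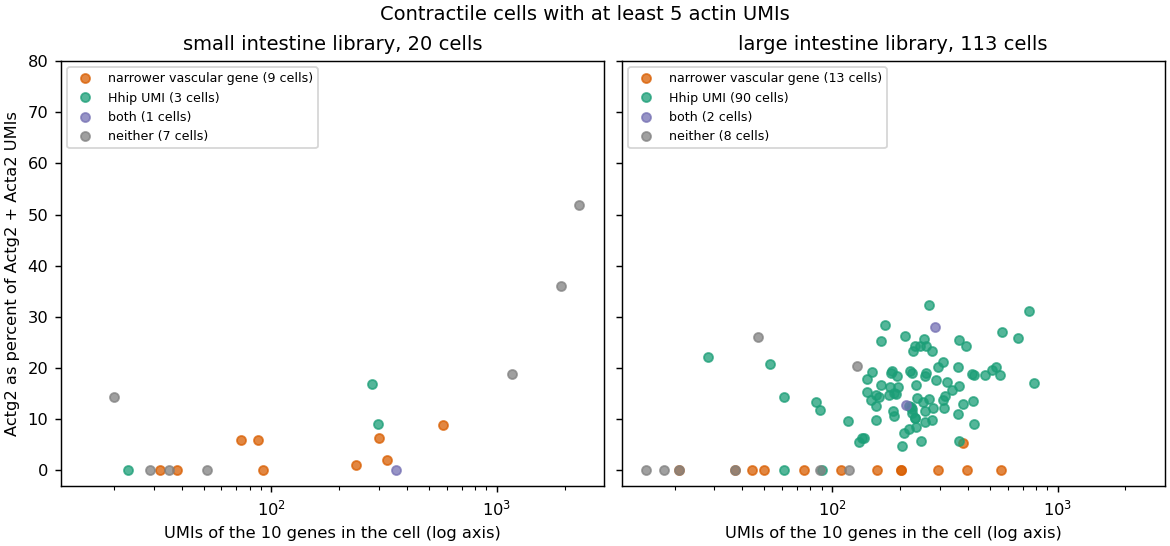
Actg2 as a percent of Actg2 and Acta2 UMIs against the UMIs of the 10 contractile genes (log axis) in each contractile cell with at least 5 actin UMIs, with 20 cells of small (left) and 113 of large intestine (right). Colours show a UMI of the narrower vascular genes, of Hhip, of both or of neither. The 3 cells farthest to the right in small intestine are those with all 10 genes, and the Hhip cells of large intestine reach 32.3%.

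Levels in contractile cells were then compared between the libraries, as log2 ratios of small over large with counting intervals. Des had 2693 against 341 CPM (2.98, 2.77 to 3.19) and Synm 609 against 95.6 CPM (2.67, 2.26 to 3.09). Pcp4 had 92 UMIs in small and 0 in large intestine, which is 115-fold higher when the 0 is set to 3 UMIs. The lower exact 95% limit for these counts was 91.7-fold. Without the 3 cells the ratios were 0.70 for Des and 0.99 for Synm, and Pcp4 had 0 UMIs in both. Contractile cells and the 3 cells were picked by UMIs of these same genes, and the 3 were removed from small intestine alone. The choice itself therefore favours lower ratios without them. Of the 9 genes with a ratio, 7 had a positive one with all cells and 2 without the 3 cells, when Myh11, Actg2, Cnn1, Myl9 and Tpm2 turned negative. Actg2 went from 0.61 to -2.49. Acta2 had 8706 against 11159 CPM (-0.36, -0.43 to -0.29) and Tagln 7271 against 7599 CPM (-0.06, -0.14 to 0.02), and without the 3 cells -0.98 and -0.77. With all cells only these 2 of the 9 had negative ratios. The 10 fibroblast markers summed to 10645 CPM in the contractile cells of small and 8199 CPM in those of large intestine, to 952 CPM in the 3 cells, and to 14439 CPM in small intestine without them. Dcn, a matrix proteoglycan gene on that list, was in 12 of 24 and 93 of 121 contractile cells. The part of fibroblast RNA in these ratios was not tested.

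Contractile cells with a narrower vascular gene, 10 in small and 19 in large intestine, were compared in the same way. The log2 ratio was 0.05 (-0.69 to 0.77) for Actg2, 0.18 (-0.27 to 0.63) for Des and 0.02 (-0.12 to 0.17) for Acta2. Without the cells that also held Hhip it was 2.87 (1.57 to 4.43) for Actg2, 0.06 (-0.40 to 0.52) for Des and -0.06 (-0.22 to 0.10) for Acta2, so the value of Actg2 turned on 2 cells of large intestine. These ratios also moved with cells outside the muscle or pericyte clusters. Of the 10 cells of small intestine, 1 lay in cluster 2, led by Gkn3, Olfm4 and Lgr5, and had 23127 UMIs, and 1 lay in the blood endothelial-like cluster 9. Of the 19 of large intestine, 1 lay in a blood endothelial-like cluster. In the muscle or pericyte clusters alone, a choice made after the data were seen, with 8 and 18 cells, the ratio was 0.50 (-0.26 to 1.24) for Actg2, 0.59 (0.12 to 1.06) for Des and 0.49 (0.34 to 0.64) for Acta2, and all 9 genes with a ratio had a positive one. Myh11 was higher in small intestine by 0.88 (0.62 to 1.14) and Synm by 1.34 (0.22 to 2.51), and without the cells with Hhip these were 0.73 (0.43 to 1.02) and 0.65 (-0.64 to 1.93), the latter with an interval that includes 0. In the muscle or pericyte clusters alone they were 1.36 and 1.89. Rgs5 was lower, at 890 against 4061 CPM (-2.19, -2.58 to -1.82), at -2.58 without the cells with Hhip, and at -1.99 in the muscle or pericyte clusters alone. Over all contractile cells it was higher in small intestine, at 1312 against 638 CPM (1.04, 0.83 to 1.25), and at 0.39 without the 3 cells with all 10 genes. Over all cells of the muscle or pericyte clusters its ratio was 1.47 (1.30 to 1.64). The fibroblast markers summed to 209 CPM in these cells of small and 3478 CPM in those of large intestine, and in contractile cells with no narrower vascular gene to 16193 and 9017 CPM, with Dcn in 0 of 10, 7 of 19, 12 of 14 and 86 of 102 cells. Their part was not tested. With 1 library a tissue these values compare the libraries.

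Of the cells in the muscle or pericyte clusters, 21 of 56 in small and 115 of 183 in large intestine were contractile, and the small intestine cluster had a higher fibroblast sum than either of the large, so its name too rests on part of its genes. The shares that follow are of these mixed clusters. After thinning to 2000 UMIs, the share of cells with a UMI was compared between the muscle or pericyte clusters and B cell clusters, a cell type that should lack these genes. Actg2 was in 14.5% of 55 muscle or pericyte-like cells of small and 50.0% of 172 of large intestine (unthinned 19.6% and 51.4%), and in 0 of 273 and 0 of 107 B-like cells, which allows shares of up to 1.10% and 2.80% when a count of 0 is taken to allow 3 cells. Des was in 30.9% and 22.7% of the muscle or pericyte-like cells (unthinned 39.3% and 29.0%) and in no B-like cell. Pcp4 was in 3.64% of those cells of small and 0% of large intestine (unthinned 5.36% and 0%), which by the same limit of 3 cells allows a share of up to 1.74% in the latter. It was in 7 of 273 (2.56%, 1.04% to 5.21%) B-like cells of small and 1 of 107 (0.935%) of large intestine (unthinned 2.66% and 1.63%), so its share in the muscle or pericyte-like cells of small intestine, with an interval of 0.443% to 12.5%, overlapped with that of cells that should lack it. Acta2, with 2020 UMIs in the kept cells of small intestine against 123 of Pcp4, was in 1 of 273 B-like cells. The source of the Pcp4 UMIs in B-like cells was not tested.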

How the data were processed

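Counts of UMIs per gene and barcode were used as the authors deposited them, from 4 Visium sections (Space Ranger 1.2.1, per the file headers) and 2 cell libraries (Cell Ranger 6.0.1, per the file headers). The submitters' processing notes name build mm10 and list Cell Ranger 6.0.1 for every sample. Nothing was normalized before deposit. Spots with at least 500 UMIs were kept, summed per section and scaled to CPM. Shares came from spots or cells thinned at random to 2000 UMIs (seed 0). Cells were filtered as described, doublets were removed by Scrublet score at 0.8% per 1000 cells, and cells were clustered without the 10 genes (2000 variable genes, 30 components, 15 neighbours, Leiden resolution 1; scanpy 1.11.5, igraph 0.11.9, Python 3.11.15, scipy 1.17.1). A fold against 0 UMIs used a floor of 3. Intervals are exact 95% Poisson (levels), exact conditional (ratios of counts) or Clopper-Pearson (shares). Named were the 10 genes, up to 5 called genes in each direction of the wider contractile list by gap, and the 10 genes most like the summed 10. Alternatives included TMM (edgeR 4.0.16, R 4.3.3) and median-of-ratios scaling, used for scaling alone. The calling code was tested on simulated data. The genes, lists, rules and tests were chosen with earlier results of these data known. Spot positions and the organoid libraries were not used here, and 1 marker gene is not reported here.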

Additional observations from a re-analysis of the deposited data

Results flagged for a closer look

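For Acta2 the contractile cells and the sections lay in opposite directions between the tissues, and for Tagln the value in contractile cells was near 0. Acta2 had a log2 ratio of small over large of -0.36 in contractile cells and of 1.95 in the sections. Tagln had -0.06 in contractile cells, where its counting interval of -0.14 to 0.02 included 0, and 1.65 in the sections. Both sections of small intestine were above both of large intestine, and there was 1 cell library a tissue. Without the 3 small intestine cells that held all 10 genes, Myh11, Actg2, Cnn1, Myl9 and Tpm2 also had negative ratios in contractile cells, from -2.49 (Actg2) to -0.34 (Myh11). The difference between cells and sections was not tested. Sections measure a gene per all RNA of the tissue and contractile cells per RNA of those cells, and the cell libraries were made from sorted cells.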

How the results depend on the processing

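Over 297 values recomputed under another setting, 221 stayed within the spread between sections or the counting interval (counts of genes, within 1.5-fold), 66 moved further and 10 changed direction. Over 100 alternatives the log2 ratio of a single gene between sections ran from 0.98 to 4.13, with none reversed. The median over the 10 genes, 2.16, was 1.5 as the mean of each spot's CPM, 2.01 without mitochondrial and ribosomal protein genes (which moved the median of all genes from -0.02 to -0.16), 2.12 with TMM, 2.15 with median-of-ratios scaling, and 1.91 to 2.38 leaving out 1 section; 10 genes were called in small and 0 in large intestine leaving out any section. Without mitochondrial and ribosomal protein genes 8.90% of all genes were called in small and 12.3% in large intestine. In muscle-rich spots, an alternative added later, the log2 share ratio of Myl9 was 0.075.

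The share of small intestine spots with any of the 10 genes was 90.6% thinned to 1000 UMIs, 99.7% thinned to 5000, 99.98% without thinning, 75.6% requiring 2 UMIs and 96.8% to 98.6% leaving out a section. In large intestine these were 61.5%, 93.2%, 99.8%, 37.8% and 75.8% to 77.3%. In all of them the 10 genes were in a lower share of spots of both large intestine sections. The median co-occurrence (log2) in the same order was 0.62, 0.13, 0.025, 1.02 and 0.28 to 0.41 in small and 1.37, 0.60, 0.089, 1.86 and 1.02 to 1.05 in large intestine.

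Contractile cells were 1.71% of small and 3.55% of large intestine cells with at least 3 of the genes, and 0.445% and 1.60% with at least 7. Those with vascular genes were 95.8% and 65.3% with at least 1 gene, 62.5% and 18.2% with at least 3 genes, 73.3% and 15.9% after thinning, and 41.7% and 15.7% with the narrower list. Counting each spot equally, Actg2 was 55.3% of the actin UMIs in small and 41.4% in large intestine sections. Counting each cell equally it was 8.85% and 13.4%, and 6.17% in small intestine without the 3 cells with all 10 genes. Without these cells the log2 ratio between contractile cells was -0.34 for Myh11, -2.49 for Actg2, -1.94 for Cnn1, -0.55 for Myl9 and -1.11 for Tpm2, all positive with them. In contractile cells with a narrower vascular gene, leaving out those with a Hhip UMI moved Actg2 from 4.16% to 0.702% of the actin UMIs in large intestine (5.11% in small) and turned the log2 ratio of Acta2 to -0.061 and of Cnn1 to 1.52, and keeping the muscle or pericyte clusters alone turned that of Tagln to 0.35 and of Cnn1 to 0.49. The alternatives without the 3 cells, without the cells with Hhip, with the muscle or pericyte clusters alone and with the narrower vascular list were chosen after seeing the data; other causes of the moves were not tested. No paired analysis was possible because the values come from no test, and no label says that the section numbers pair sections across tissues. Depth limits Pcp4 most, at 583 and 597 UMIs in the large intestine sections.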

Other observations

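The list of enteric muscle markers held 12 genes, 4 of them among the 10 contractile genes. Of 10 with enough UMIs in the sections, 6 were called higher in small and 0 in large intestine, beside 10.4% and 9.93% of all genes. The 6 hold the 4 contractile genes, and of the 6 others tested 2 were called, Chrm2 and Npnt. Npnt, which encodes the extracellular matrix protein nephronectin, had 16.3 and 16.9 CPM in small and 1.14 and 0.662 CPM in large intestine sections, with the lower small intestine section 14.3-fold above the higher large intestine section. Nkx2-3, a transcription factor of gut mesenchyme, had 15.6 and 15.9 against 9.53 and 10.3 CPM over whole sections. Hhip had the lowest log2 ratio of the list, -0.57, with 9.81 and 6.35 CPM in small and 13.3 and 10.6 CPM in large intestine.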
